A study of Mus musculus with 12 samples.

Results

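The comparison reported here is the difference between the effect of the A-y allele of agouti in the older mice and its effect in the younger mice of one array series. It was taken over all 35556 transcript clusters of the array as (42Y minus 42WKK) minus (6Y minus 6K), each term being the mean log2 signal of a group. It drew on 8 of the 12 arrays of the series, 2 in each of these 4 groups, which were taken by their titles. A positive value means that the effect was higher at 42 than at 6, and a negative value that it was lower. The 42Y arrays are from KK-Ay mice (KK.Cg-A-y/J, KK mice that carry the A-y allele) and the 42WKK arrays from KK mice without it. The 6Y arrays are T2D mice and the 6K arrays control mice in the list of groups given for the series. The study names only KK and KK-Ay mice, which share the KK background and were fed laboratory chow, and it gives 42 weeks as the age of the mice it analysed. No source used here gives a unit for the 6 in the titles, the sex of the mice, the time of day of collection or whether any 2 arrays come from different mice. The p-values therefore reflect only the spread between these arrays, which may be technical. The other 4 arrays are titled 16Y (T2D) and 1-3 and 1-5 (control, strain and age not given array by array). They entered the fit for its estimate of the spread and are quoted as a reference.

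The records do not agree on all of these labels. The sample records call the 6K arrays T2D and the 42Y arrays control, the reverse of the list for the series, and the list was followed. The signal of agouti itself bears on this and is given first below. The sample records name blood as the tissue, while the methods name liver. Alb, which encodes serum albumin made by hepatocytes, had a signal of 13.63 to 13.80 in all 8 arrays, close to the top of the scale. Ptprc, which encodes the CD45 antigen of leukocytes, had 5.12 to 5.81, near the array medians of 4.74 to 4.88. The mean over the 7 measured hepatocyte markers ranged from 12.94 to 13.09, against 5.41 to 6.05 for the 6 measured leukocyte markers. The 2 arrays of a group correlated at 0.983 (42Y) to 0.991 (42WKK).

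Agouti is a secreted antagonist of melanocortin receptors, normally made in the skin. In A-y a deletion removes Eif2s2 and the coding part of Raly and leaves agouti under the Raly promoter, so that agouti is made in all tissues of carriers. Carriers have yellow fur, overeat and become obese, and on the KK background they develop hyperglycaemia and insulin resistance with age. The liver then takes up much of the load of glucose and lipid, and its own clock, sterol and fatty acid genes respond to feeding and to insulin.

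Agouti itself was higher with the allele by about the same amount at both ages. It had signals of 5.29 and 5.20 in 6K, 7.06 and 6.78 in 6Y, 5.22 and 5.34 in 42WKK and 6.96 and 6.96 in 42Y. Both groups titled Y lay above both groups titled K, with no overlap. Its effect was 1.67 at 6 and 1.68 at 42, and the difference was 0.01 (95% confidence interval -0.43 to 0.44, adjusted p = 0.99). It was the only cluster of 35556 called at 6 (0.00281%), a call being an adjusted p under 0.05 in limma over all clusters. That call was lost with each of the 8 arrays left out, with the 8 arrays alone and with quantile normalization. Raly, the RNA-binding protein gene whose promoter drives agouti in A-y mice, had effects of -0.91 at 6 and -0.66 at 42. Its difference was 0.25 (95% confidence interval -0.19 to 0.69, adjusted p = 0.62). Eif2s2, which encodes the beta subunit of translation initiation factor eIF2, had 8.45 and 8.53 in 6K, 7.67 and 7.51 in 6Y, 8.88 and 8.75 in 42WKK, and 7.38 and 7.50 in 42Y. It was lower in both Y groups, by more at 42 (effect -1.37) than at 6 (-0.90). That difference, -0.47 (standard error 0.15), was not called (adjusted p = 0.23). A second Eif2s2 cluster gave -0.48 with the same adjusted p. Of the genes that the study names, Nt5c2, a cytosolic 5'-nucleotidase, had a difference of -0.44 (standard error 0.16, adjusted p = 0.31), from effects of -0.32 at 42 and 0.12 at 6. Fut8, the alpha-1,6-fucosyltransferase, had -0.46 (standard error 0.21, adjusted p = 0.40).

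Over the whole array the effects at 42 were larger than those at 6, and their correlation across genes was near 0. Over 19938 genes, each represented by its brightest cluster with 1 symbol, the standard deviation of the effect was 0.311 at 42 and 0.182 at 6. The effect exceeded 1 in size for 268 genes at 42 and for 26 at 6. At 42, 659 clusters were called (1.85%), against the single cluster at 6. This order depends on the control, since with 1-3 and 1-5 in place of 6K 1215 clusters were called at 6. The Pearson correlation between both effects across genes was -0.0546 (Spearman -0.0709), with no array in common. Genes are not independent replicates, and this is a description. At an unadjusted p under 0.05 there were 1878 clusters at 6 and 6154 at 42. With 1 call at 6 the effects there are imprecise, so a correlation near 0 cannot show whether the effects are related. The difference itself was called for 51 clusters (0.143%), of which 32 were higher (0.09%) and 19 lower (0.0534%). At an unadjusted p under 0.05 it included 4707 clusters (13.2%). Among genes, 19 were called (0.0953%), 9 of them higher and 10 lower.

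**Figure D1:**
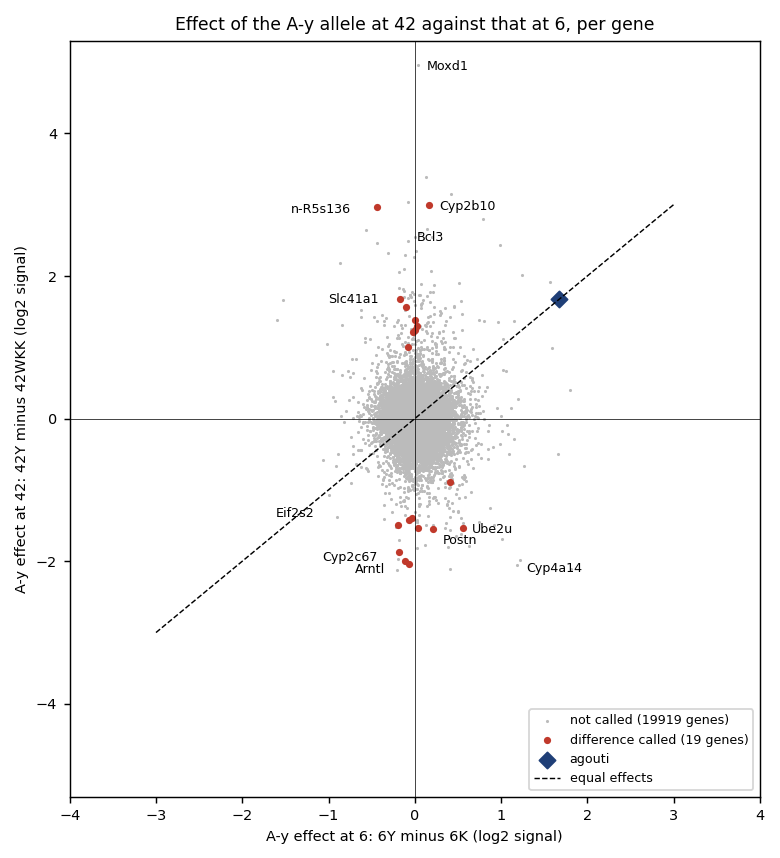
Effect of the A-y allele at 42 (vertical axis, 42Y minus 42WKK) against its effect at 6 (horizontal axis, 6Y minus 6K) on the log2 scale, 1 point for each of 19938 genes. The 19 genes whose difference was called (red) lie far from 0 on the vertical axis and, for most, near 0 on the horizontal one, while agouti (blue diamond) lies on the dashed line of equal effects.

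In most of the called clusters an older group stood apart. The counts that follow are read from the same means as the calls, so they describe these clusters and are no test. In all 51 the effect at 42 had the sign of the difference, and 50 of the 51 were also called at 42, while none was called at 6. The group whose mean stood farthest from the median of the means of the other 3 was 42WKK in 31 clusters, 42Y in 18, 6K in 2 and 6Y in 0. In all 31 of the first kind both 42WKK arrays were beyond the extremes of the remaining 10 arrays of the series, and in 17 of the 18 of the second kind both 42Y arrays were. Among the 19 called genes, 42Y stood apart in 12 and 42WKK in 7. Over all 19938 genes it was 42Y in 6600, 42WKK in 5718, 6K in 3884 and 6Y in 3736. The number of calls changed with the arrays used. Leaving out an array also makes its group less precise, and the part of any particular array was not tested. Leaving out 1 of the 8 arrays left 3 to 110 clusters called, and with 1-3 and 1-5 in place of 42WKK as the controls at 42 only 6 were called, 4 of them among the 51.

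Of the genes in which 42Y stood apart, Arntl was the most firmly called. It encodes BMAL1, the partner of CLOCK in the activating limb of the circadian clock. Its signals were 7.69 and 7.59 in 6K, 7.54 and 7.60 in 6Y, 7.74 and 7.64 in 42WKK, and 5.62 and 5.67 in 42Y. The 42Y arrays lay far below all others, including 16Y (7.30 and 7.38) and 1-3 and 1-5 (7.37 and 7.33). The effect was -2.04 at 42 and -0.07 at 6, and the difference -1.97 (standard error 0.13, adjusted p = 0.0036). It was called with each of the 8 arrays left out in turn and also with 1-3 and 1-5 in place of 42WKK, where it was -1.63 (adjusted p = 0.019).

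Among the other genes called lower with 42Y apart, Elovl3, an elongase of very long chain fatty acids whose level in liver follows the time of day, had 12.47 and 12.44 in 6K, 12.50 and 12.28 in 6Y, 12.44 and 12.33 in 42WKK, and 10.98 and 10.94 in 42Y. Its difference was -1.36 (standard error 0.16, adjusted p = 0.029). Clpx, the ATPase subunit of the mitochondrial ClpXP protease, had 10.79 and 10.87, 10.68 and 10.58, 10.90 and 10.80, and 9.33 and 9.39 in the same order of groups. In both genes the 6 arrays of the other groups lay close together and 42Y stood alone below them. The difference of Clpx was -1.29 (standard error 0.16, adjusted p = 0.034). Nckap5 had a difference of -1.36 (standard error 0.14, adjusted p = 0.015), and it stayed called with 1-3 and 1-5 in place of 42WKK (-1.49, adjusted p = 0.019). Gask1a, a Golgi-associated protein, had -1.68 (adjusted p = 0.041). Cyp2c67, a cytochrome P450 of the crowded Cyp2c cluster, had -1.88 (adjusted p = 0.049), with 9.59 and 9.90 in 6K, 9.55 and 9.73 in 6Y, 9.99 and 10.24 in 42WKK, and 8.29 and 7.97 in 42Y. A cluster that carries the names of Cyp2c67, Cyp2c68, Cyp2c69 and Cyp2c40 together was also called, at -1.84 (adjusted p = 0.029), and since these paralogs are near-identical their signals cannot be assigned with certainty. Ube2u, a ubiquitin-conjugating enzyme, had -2.09 (standard error 0.24, adjusted p = 0.027), from an effect of 0.56 at 6 and -1.53 at 42.

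Genes that were called higher with 42Y apart were fewer. A further gene called lower with 42Y apart has a predicted name and is counted only. Zc3h13, a zinc finger protein of the RNA m6A methylation complex, had 6.42 and 6.55 in 6K, 6.48 and 6.50 in 6Y, 6.42 and 6.31 in 42WKK, and 7.75 and 7.74 in 42Y. Its difference was 1.38 (standard error 0.14, adjusted p = 0.015). The 6 arrays of the other groups lay between 6.31 and 6.55, and both 42Y arrays lay more than 1 log2 unit above them. Slc41a1, a magnesium transporter, had 5.70 and 5.64, 5.27 and 5.73, 5.20 and 5.31, and 6.97 and 6.90 in the same order, with a difference of 1.85 (standard error 0.22, adjusted p = 0.029). The difference was 1.24 for Smad1, a transcription factor of bone morphogenetic protein signalling (standard error 0.15, adjusted p = 0.029), and also 1.24 for Map3k6, a stress-activated kinase (standard error 0.17, adjusted p = 0.045). Of the called genes of this kind named here other than Arntl, each was called in at most 2 of the 8 fits that left out 1 array, and Gask1a, Cyp2c67 and Map3k6 in none. The signs did not change in any of those fits.

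**Figure D2:**
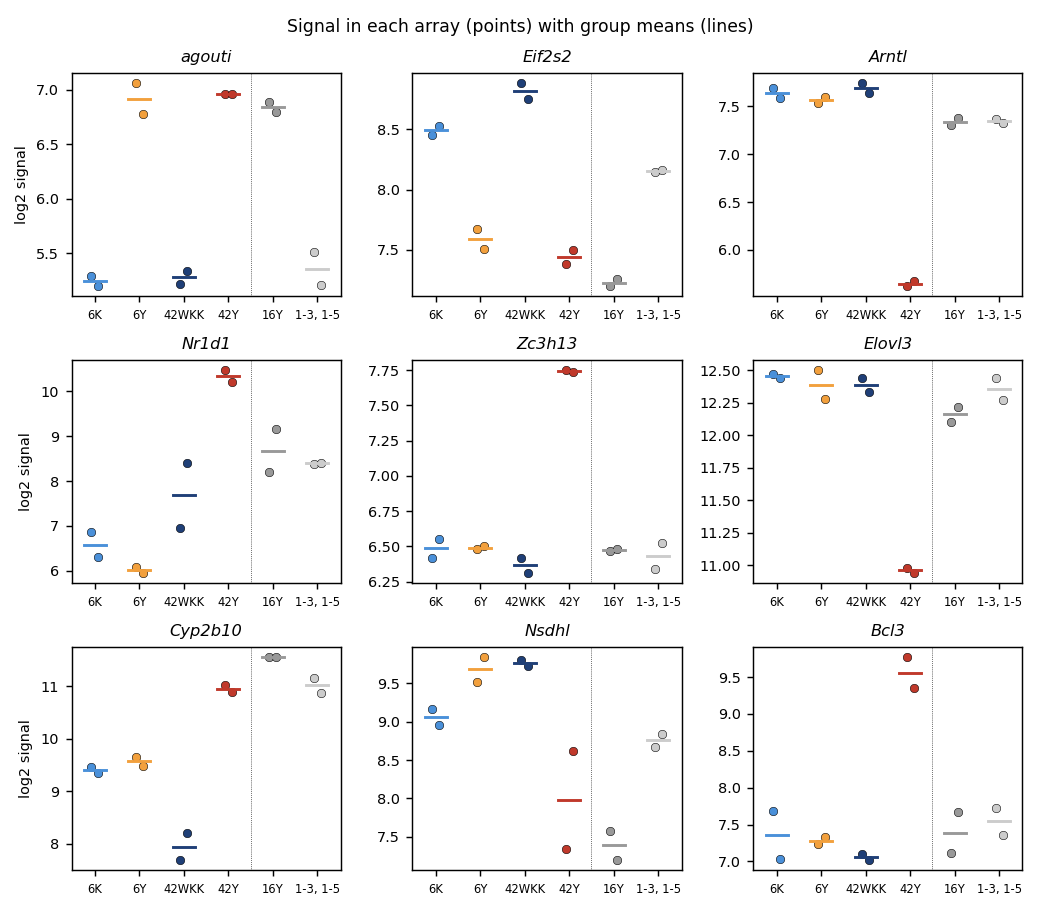
Log2 signal of 9 genes in each of the 12 arrays, with 2 points and a line for the mean in each group, and the 4 groups of the comparison to the left of the dotted line. Agouti and Eif2s2 separate Y from K groups at both ages, Arntl, Zc3h13, Elovl3 and Bcl3 have 42Y apart from the other groups, and Cyp2b10 has 42WKK at the bottom.

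The clock list held Arntl and more genes at the edge of the threshold. In the liver clock CLOCK and BMAL1 bind E-boxes and switch on the Per, Cry, Nr1d1, Nr1d2, Dbp, Tef and Ciart genes, whose products either close the loop as repressors or pass the rhythm on. The proteins encoded by Nr1d1 and Nr1d2, REV-ERB alpha and beta, repress Arntl through half-sites of the sequence AGGTCA. Of 18 measured genes of the list, 8 were higher and 3 lower at an unadjusted p under 0.05, where 5.63% and 7.73% of all genes were. Arntl was the 1 called over all clusters. With 1-3 and 1-5 in place of 6K 11 were higher, 3 lower and 9 called. That setting had 2082 calls over all clusters, against 51 with 6K, and 8427 clusters with an unadjusted p under 0.05. The median difference of the list was 0.16 because its members had values of both signs, and the median over all genes was near 0. At 42 alone, 5 clock genes were called higher and 3 lower (0.838% and 1.08% of all genes), and at 6 none was. The Per, Cry and Bhlhe41 genes, Tef, Hlf and Ciart are named below after their values were seen.

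In the activating limb Clock had a difference of -0.86 (standard error 0.14, adjusted p = 0.076), with 8.46 and 8.50 in 6K, 8.59 and 8.74 in 6Y, 9.05 and 9.03 in 42WKK, and 8.29 and 8.46 in 42Y. The repressors of Arntl were at their highest in 42Y. Nr1d2 had 6.64 and 6.53 in 6K, 6.62 and 6.32 in 6Y, 7.09 and 7.36 in 42WKK, and 8.56 and 8.92 in 42Y. Nr1d1 had 6.86 and 6.30, 6.09 and 5.95, 6.96 and 8.41, and 10.47 and 10.21 in the same order. In both genes the 42Y arrays did not overlap with any other group of the comparison, and the 2 42WKK arrays differed from each other by more than 1 for Nr1d1. The difference was 1.63 for Nr1d2 (standard error 0.24, adjusted p = 0.054) and 3.22 for Nr1d1 (standard error 0.64, adjusted p = 0.10), and neither was called.

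Among the output factors Dbp had 5.86 and 5.68 in 6K, 5.74 and 5.82 in 6Y, 6.10 and 6.01 in 42WKK, and 7.81 and 9.01 in 42Y, and a difference of 2.34 (standard error 0.47, adjusted p = 0.11). The related factor Tef had 0.96 (adjusted p = 0.21), while Hlf, the remaining member of that family, had -0.32 (adjusted p = 0.57). Among the repressors of the CLOCK and BMAL1 pair, Ciart had 2.55 (standard error 0.76), Bhlhe41 1.17, Per3 0.73, Cry2 0.45 and Cry1 -1.48 (standard error 0.30, adjusted p = 0.11). Cry1 thus had the sign of Arntl and Clock and not that of the other repressors with an unadjusted p under 0.05. Per1 and Per2 behaved otherwise. Per2 had 5.82 and 5.77 in 6K, 5.94 and 5.73 in 6Y, 6.70 and 6.73 in 42WKK, and 6.78 and 6.43 in 42Y, so that it was higher at 42 than at 6 in both genotypes, by 0.92 in KK (adjusted p = 0.041) and 0.77 in KK-Ay (adjusted p = 0.054). Its difference was -0.15 (95% confidence interval -0.66 to 0.36). That of Per1 was -0.05, with a wide interval of -1.40 to 1.29. No source states the hour at which the tissues were taken, and hour and genotype cannot be told apart in these values.

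**Figure D3:**
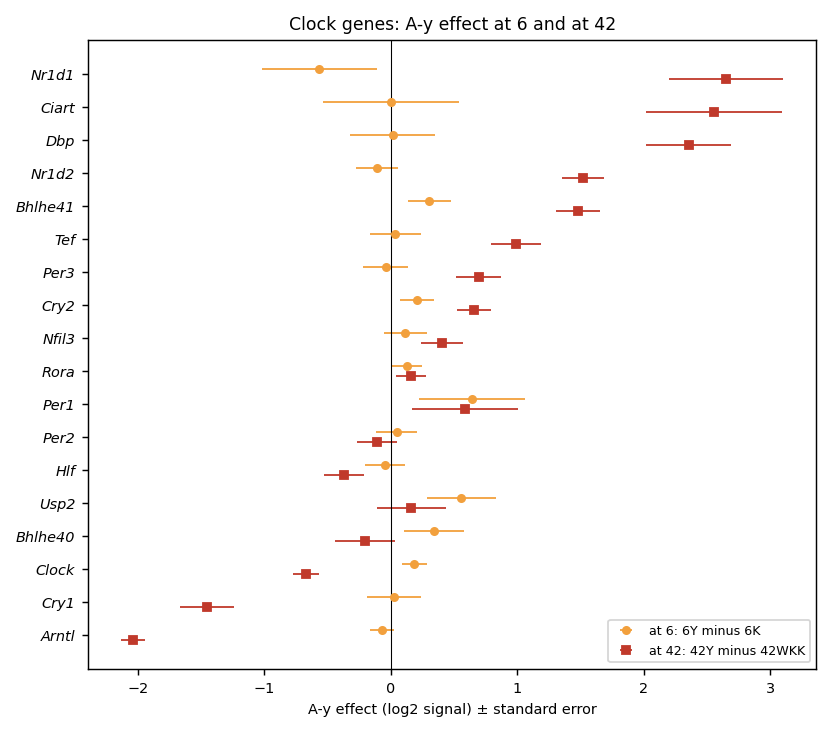
Effect of the A-y allele on 18 clock genes at 6 (orange circles, 6Y minus 6K) and at 42 (red squares, 42Y minus 42WKK) on the log2 scale, with standard errors from limma, ordered by the difference between the effects. The circles stay near 0 for most genes, while the squares run from -2.04 for Arntl to 2.65 for Nr1d1.

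The promoters of 4 of these genes are shown because they carry the motifs through which the 2 limbs are known to act, and because the genes differ in direction. They were read from RefSeq promoters of build GRCm38.p6, which run from 250 bases before to 50 bases after the start, and the motif letters found are in capitals. The motifs searched, on both strands, were the E-box CACGTG, the half-site AGGTCA and the D-box TTATGNAA. The E-box occurs in 7.15% of 32851 promoters, the half-site in 16.3% and the D-box in 3.38%. Of the 16 clock genes with a listed promoter, 5 held an E-box, 5 a half-site and 2 a D-box in any of their promoters. These counts are per gene, while the shares above are per promoter. Nr1d1 and Dbp, among others, held none of these motifs in this window. Arntl (difference -1.97, chr7:113207261-113207560, plus strand) has a half-site at position 32 (its first base, counted from the start), in 1 of its 2 listed promoters:
Arntl: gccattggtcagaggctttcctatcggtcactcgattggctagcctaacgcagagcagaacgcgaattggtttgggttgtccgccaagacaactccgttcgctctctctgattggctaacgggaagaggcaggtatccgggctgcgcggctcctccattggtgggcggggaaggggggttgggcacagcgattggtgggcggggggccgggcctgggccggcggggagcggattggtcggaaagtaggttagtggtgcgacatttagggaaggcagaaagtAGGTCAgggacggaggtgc
Nr1d2 (difference 1.63, chr14:18239057-18239356, minus strand) has a half-site at position -77 from the start:
Nr1d2: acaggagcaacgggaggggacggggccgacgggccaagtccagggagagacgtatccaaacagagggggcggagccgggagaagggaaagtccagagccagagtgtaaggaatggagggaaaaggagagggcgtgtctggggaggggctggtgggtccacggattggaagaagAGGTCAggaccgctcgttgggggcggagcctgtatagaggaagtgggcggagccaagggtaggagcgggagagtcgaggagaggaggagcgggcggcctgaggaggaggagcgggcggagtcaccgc
Ciart (difference 2.55, chr3:95882179-95882478, minus strand) has 3 E-boxes, at positions -116, -58 and -44:
Ciart: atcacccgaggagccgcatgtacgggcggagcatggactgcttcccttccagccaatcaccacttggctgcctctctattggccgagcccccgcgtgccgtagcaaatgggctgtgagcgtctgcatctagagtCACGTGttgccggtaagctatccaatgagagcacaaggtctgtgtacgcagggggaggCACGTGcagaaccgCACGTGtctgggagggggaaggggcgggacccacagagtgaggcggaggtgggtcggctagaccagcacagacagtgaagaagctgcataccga
Cry1 (difference -1.48, chr10:85185005-85185304, minus strand) has 1 E-box, at position -60:
Cry1: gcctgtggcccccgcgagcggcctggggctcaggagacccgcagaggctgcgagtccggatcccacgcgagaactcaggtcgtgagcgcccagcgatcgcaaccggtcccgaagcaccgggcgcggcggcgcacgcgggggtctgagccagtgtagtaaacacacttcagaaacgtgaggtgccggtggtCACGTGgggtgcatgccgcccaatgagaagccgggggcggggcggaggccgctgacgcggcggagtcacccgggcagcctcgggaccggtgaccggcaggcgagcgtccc
A half-site is thus present in a gene of each direction, and so is an E-box. A match to these letters is a description of the window and no measure of binding.

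In the remaining called genes 42WKK stood farthest from the other groups, in Cyp2b10 and Sbno2 with 42Y about as far on the opposite side. Cyp2b10, the cytochrome P450 that is the classical target of the receptor CAR, had 9.46 and 9.34 in 6K, 9.65 and 9.48 in 6Y, 7.69 and 8.20 in 42WKK, and 11.02 and 10.88 in 42Y. From 6 to 42 it fell in KK by 1.46 (adjusted p = 0.014) and rose in KK-Ay by 1.38 (adjusted p = 0.011), so that the difference was 2.84 (standard error 0.25, adjusted p = 0.01). The value depends on the control. Arrays 1-3 and 1-5 had 11.16 and 10.86, like 42Y, and with them in place of 42WKK the difference was -0.23 (adjusted p = 0.81). Of the 22 measured genes of the list of xenobiotic P450 enzymes and their receptors, Cyp2b10 was the 1 called (0.0953% of all genes). At an unadjusted p under 0.05, 3 were higher and 1 lower, where 5.63% and 7.73% of all genes were. Postn, which encodes the matrix protein periostin, had 5.89 and 6.03 in 6K, 6.21 and 6.15 in 6Y, 7.56 and 7.14 in 42WKK, and 5.90 and 5.70 in 42Y. Only the 42WKK arrays were high, the difference was -1.77 (standard error 0.21, adjusted p = 0.029), and with 1-3 and 1-5 in their place it was 0.00. Pclo, which encodes a scaffold protein of the presynaptic zone, had -1.29 (standard error 0.18, adjusted p = 0.045) and 42WKK as the highest group. Sbno2, a transcriptional coregulator, had 1.08 (standard error 0.14, adjusted p = 0.041), from a change from 6 to 42 of -0.54 in KK (adjusted p = 0.051) and 0.54 in KK-Ay (adjusted p = 0.042). A cluster of Slc44a1, a choline transporter, that is not the brightest of that gene was called at -1.76 (adjusted p = 0.032), again with 42WKK as the highest group.

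Most of the called clusters with no gene symbol followed 42WKK in the same way. Of 12146 clusters with no symbol 29 were called, where 0.143% of all clusters were, and 6746 of the 12146 had a positive difference. Of the 29 called 23 were higher, and in 21 of these both 42WKK arrays lay below all other 10 arrays. That position is read from values that also made the call. Of 76 small RNA clusters 3 were called higher, where 0.09% of all clusters were. In these 3 both 42WKK arrays also lay below all others. The 5S ribosomal RNA gene n-R5s136 had 12.30 and 12.29 in 6K, 11.68 and 12.04 in 6Y, 9.17 and 9.66 in 42WKK, and 12.43 and 12.33 in 42Y, and a difference of 3.40 (standard error 0.27, adjusted p = 0.0076). The difference was 1.67 (adjusted p = 0.049) for Snord15b and 1.28 (adjusted p = 0.045) for Snord96a, both small nucleolar RNAs that guide chemical modification of ribosomal RNA. In both of these the 42Y arrays also lay above the 4 younger arrays. Over all 76 small RNA clusters 72 had a positive difference, with a median of 0.86, and 36 were higher and 1 lower at an unadjusted p under 0.05, against 6.64% of all clusters higher. The median signal of these 76 clusters was 6.91 and 7.25 in 42WKK and 7.22 and 8.02 in 42Y, against 7.09 to 7.56 in the 4 younger arrays. It was thus lowest in 1 42WKK array and highest in 1 42Y array. By this median the 42WKK and 42Y arrays overlapped. The part of the small RNA signal in the results for other genes was not tested.

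Genes of cholesterol synthesis had negative differences throughout, with no call over all clusters. This pathway makes sterols from acetyl-CoA through mevalonate and squalene, and its genes are switched on together by SREBP2 when sterol is scarce. All 20 measured genes had a negative difference, from -0.28 to -2.41, with a median of -1.31. At an unadjusted p under 0.05, 17 were lower and 0 higher, where 7.73% of all genes were lower. The mean effect was above 0 at 6 and below 0 at 42 for each of the 20, with medians of 0.40 and -0.97. These genes share 1 regulator and the same 8 arrays, so they are not independent of each other. Leaving out 1 array left 16 to 18 genes lower, and with 1-3 and 1-5 in place of 42WKK 7 were lower, with a median difference of -0.74. Calls appeared in other settings, which also had more calls in total than the 51 clusters above. There were 9 among clusters with a mean of at least 6 (622 in total) and 4 among clusters with 1 symbol (208 in total). With 1-3 and 1-5 in place of 6K there were 11 (2082 in total). The median difference was -1.02 without 42Y replicate 1 and -1.55 without 42Y replicate 2, the extremes of the fits without single arrays. The median signal of the list was 7.62 in 42Y replicate 1 and 8.6 in replicate 2, against 8.69 to 9.34 in the 6K, 6Y and 42WKK arrays. At 42 alone 3 of the genes were called lower, where 1.08% of all genes were.

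Early in the pathway Hmgcs1, which makes HMG-CoA, had 9.05 and 9.11 in 6K, 9.64 and 10.02 in 6Y, 10.01 and 9.66 in 42WKK, and 7.81 and 8.97 in 42Y. Pmvk, phosphomevalonate kinase, had 7.42 and 7.09, 7.67 and 7.60, 7.94 and 7.67, and 6.26 and 6.94 in the same order. In both genes 6Y lay above 6K and 42Y below 42WKK with no overlap within either pair. The difference was -2.19 for Hmgcs1 (standard error 0.47, adjusted p = 0.12) and -1.58 for Pmvk (standard error 0.33, adjusted p = 0.11). Later in the pathway Sqle, the squalene epoxidase, had -2.41 (standard error 0.62) and Lss, lanosterol synthase, -1.34 (standard error 0.28, adjusted p = 0.11). Nsdhl, a sterol dehydrogenase, had 9.16 and 8.96 in 6K, 9.52 and 9.84 in 6Y, 9.80 and 9.72 in 42WKK, and 7.34 and 8.62 in 42Y, and a difference of -2.40 (standard error 0.49, adjusted p = 0.11). The 2 42Y arrays differed by more than 1 for Nsdhl and for Hmgcs1, with replicate 1 the lower, and the 16Y arrays of T2D mice were as low (7.58 and 7.20 for Nsdhl). Ebp, Stard4 and Srebf2, the gene of SREBP2 itself, had differences of -0.28, -0.39 and -0.29 and did not reach an unadjusted p under 0.05. Sqle, Ebp, Stard4 and Srebf2 were chosen after their values were seen.

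**Figure D4:**
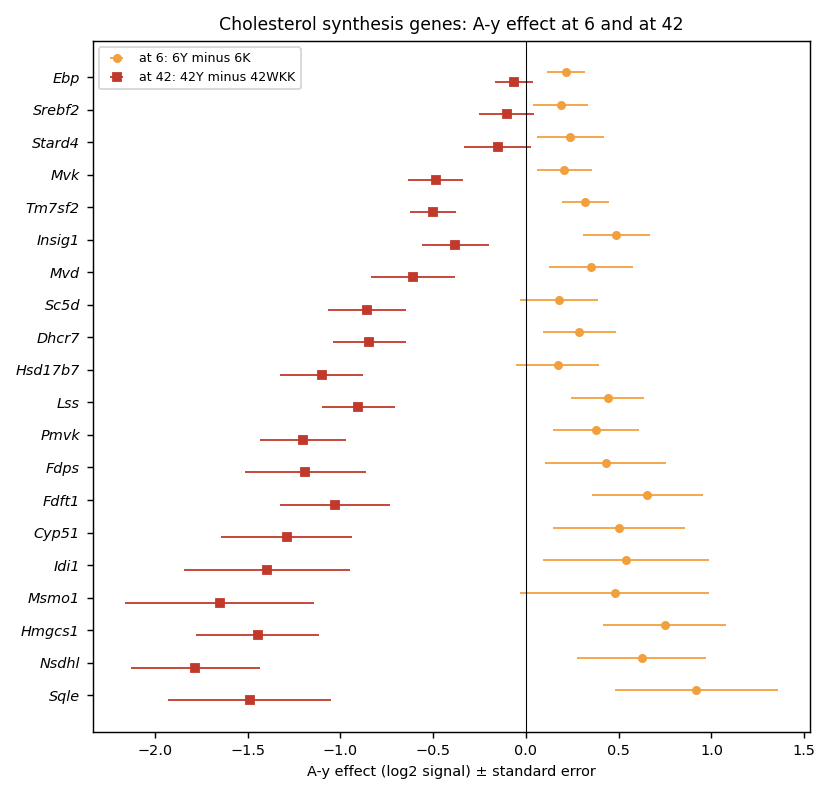
Effect of the A-y allele on 20 genes of cholesterol synthesis and its regulation at 6 (orange circles, 6Y minus 6K) and at 42 (red squares, 42Y minus 42WKK) on the log2 scale, with standard errors from limma. Every circle lies above 0 and every square below 0, and the gap is widest for Sqle, at -2.41.

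Fatty acid genes had mostly negative differences too, with smaller medians and no call. In the list of fatty acid and triglyceride synthesis 13 of 24 genes were lower and 0 higher at an unadjusted p under 0.05 (7.73% and 5.63% of all genes), and the median difference was -0.64. Acacb, the acetyl-CoA carboxylase at mitochondria, had 8.19 and 8.02 in 6K, 8.26 and 8.24 in 6Y, 8.19 and 8.08 in 42WKK, and 6.94 and 7.39 in 42Y, and a difference of -1.12 (standard error 0.20, adjusted p = 0.09). Elovl6, an elongase of long chain fatty acids, had -1.74 (standard error 0.42, adjusted p = 0.15), with 42WKK (10.61 and 10.16) above 42Y (9.16 and 9.02) and above 6K (9.39 and 8.71). Fatty acid oxidation, the opposite process, was no exception, with 10 of 22 genes lower (7.73% of all genes) and 0 higher and a median of -0.59. Cyp4a14, a fatty acid hydroxylase induced by PPAR alpha, had 6.79 and 6.87 in 6K, 7.94 and 8.08 in 6Y, 5.94 and 6.50 in 42WKK, and 3.72 and 4.61 in 42Y. It was higher with the allele at 6 (effect 1.18) and lower with it at 42 (-2.05), and the groups of each pair did not overlap. The difference was -3.24 (standard error 0.48, adjusted p = 0.054). Acot2, a mitochondrial acyl-CoA thioesterase, had -2.03 (standard error 0.35, adjusted p = 0.084). Genes of the beta-oxidation spiral itself had smaller values, such as -0.26 for Acadm, 0.11 for Acadvl and -0.22 for Hadha, and Cpt1a, the entry step, had 0.19. These 4 were chosen after their values were seen. With 1-3 and 1-5 in place of 42WKK, 5 genes of synthesis and 4 of oxidation were lower, with medians of -0.42 and -0.26, and leaving out single arrays gave 8 to 14 and 7 to 10.

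Genes of early and inflammatory responses had mostly positive differences, with no call. Of 15 immediate early genes, which are switched on within minutes of a stimulus, 7 were higher (5.63% of all genes) and 0 lower at an unadjusted p under 0.05, with a median of 1.20. The median was 0.67 without 42Y replicate 1 and 1.41 without 42Y replicate 2. It was 0.57 with 1-3 and 1-5 in place of 42WKK, where 5 were higher. Junb had 6.15 and 6.16 in 6K, 6.18 and 5.97 in 6Y, 5.63 and 5.92 in 42WKK, and 7.82 and 7.13 in 42Y, and a difference of 1.78 (standard error 0.29, adjusted p = 0.068). Egr1 had 2.73 (standard error 0.63, adjusted p = 0.14) and Btg2, an antiproliferative factor, 2.35 (standard error 0.51, adjusted p = 0.13), while Fos had -0.35 and Jun 0.28, which were both named after their values were seen. For Junb, Egr1 (9.55 and 8.10) and Btg2 (9.19 and 7.88) 42Y replicate 1 lay above replicate 2, and both lay above the other 6 arrays. Leaving out single arrays gave 5 to 11 such genes. Of 23 acute phase genes 8 were higher (5.63% of all genes) and 0 lower, with a median of 0.39. With 1-3 and 1-5 in place of 6K 4 were higher and 2 lower, with a median of 0.16. Socs3, a feedback inhibitor of cytokine signalling, had 6.22 and 5.80 in 6K, 5.31 and 5.83 in 6Y, 5.02 and 5.61 in 42WKK, and 8.42 and 7.14 in 42Y, and a difference of 2.91 (standard error 0.55, adjusted p = 0.097). Saa1, serum amyloid A, had 2.40 (standard error 0.66), with 8.55 and 8.28 in 42WKK below all 6 other arrays, which had 9.80 to 11.28. Bcl3 and Nfkbiz, nuclear regulators of NF-kappa B, had 2.58 (standard error 0.37, adjusted p = 0.053) and 1.24 (standard error 0.19, adjusted p = 0.054), with 42Y as the highest group in both. The median of the acute phase list was 0.02 without 6Y replicate 1, and 0.22 without 6K replicate 2 or 42Y replicate 2. Retnlg, a neutrophil gene, had 1.39 (standard error 0.27, adjusted p = 0.098), the highest of the 9 measured monocyte and neutrophil markers. Of these 2 were higher and 0 lower, while 6 differences were positive and 3 negative, down to -0.66. Their median was 0.30, with 0.05 without 42Y replicate 2 and 0.60 without 6Y replicate 2 as the extremes of the fits without single arrays. The median signal was 4.37 in 42Y replicate 1 and 5.53 in replicate 2. The mean of these markers ranged from 4.96 to 5.24 in 42Y, 4.41 to 4.52 in 42WKK, 4.46 to 5.06 in 6Y and 4.40 to 4.48 in 6K. In bulk tissue more cells of a type and more RNA per cell cannot be told apart, and the part of these cells in the acute phase values was not tested. Interferon-stimulated genes had 5 lower (7.73% of all genes) and 0 higher of 19, with a median of -0.26. With 1-3 and 1-5 in place of 42WKK 0 were lower, with a median of -0.08. With them in place of 6K 10 were lower and 1 higher, with a median of -0.84.

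**Figure D5:**
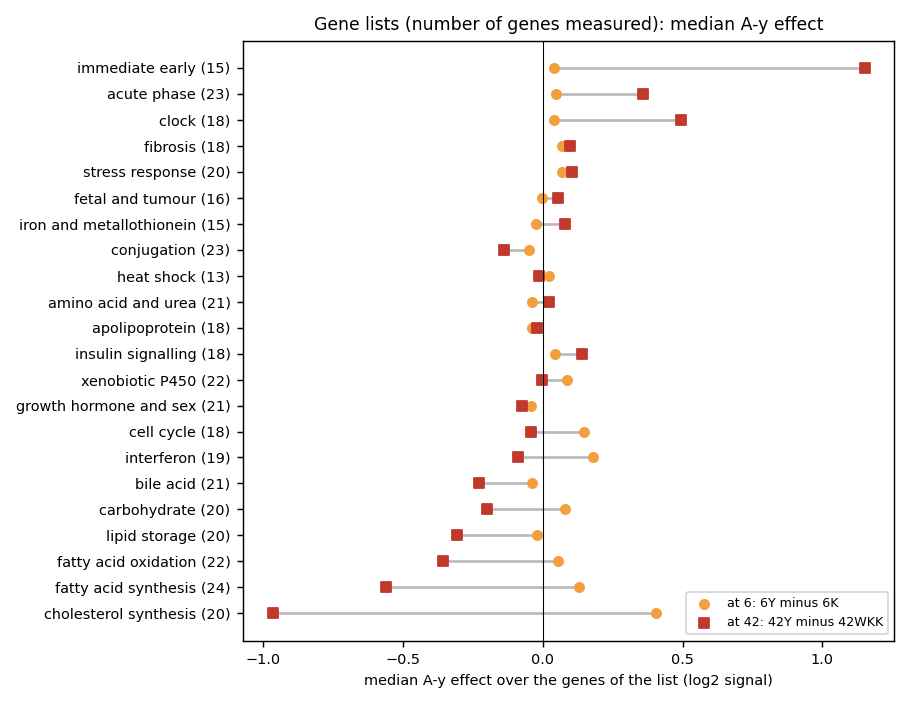
Median effect of the A-y allele over the genes of 22 lists at 6 (orange circles, 6Y minus 6K) and at 42 (red squares, 42Y minus 42WKK) on the log2 scale, ordered by the median difference per gene, with the number of genes measured in brackets. Cholesterol synthesis has the widest gap, from 0.40 to -0.97, and immediate early genes the widest gap upward, from 0.04 to 1.15.

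Heat shock chaperones, which refold damaged proteins, were higher at 42 than at 6 in both genotypes. From 6 to 42, 6 of 13 genes were called higher in KK and 6 in KK-Ay, against 0.642% and 0.923% of all genes, with median changes of 1.17 and 1.01. Hspa8, the constitutive HSC70, had 10.85 and 10.67 in 6K, 11.21 and 11.35 in 6Y, 12.37 and 12.48 in 42WKK, and 12.59 and 12.33 in 42Y. Both older groups lay above both younger ones. The median signal of the list was 7.74 to 8.34 in 6K and 6Y and 9.23 to 9.82 in 42WKK and 42Y. It was 8.19 and 8.12 in 16Y, and 8.96 and 9.03 in 1-3 and 1-5. Age and any difference in how the groups were collected or hybridised cannot be told apart in these values. Hspb1 rose by 2.48 in KK (adjusted p = 0.029) and by 2.18 in KK-Ay (adjusted p = 0.031). The median difference of effects over the 13 genes was 0.00, and 0 were called. With 1-3 and 1-5 in place of 6K it was 0.47, with 5 genes higher at an unadjusted p under 0.05 and 1 called. That setting had 2082 calls over all clusters. With these arrays in place of 42WKK the median was 0.46, with 4 higher. The intervals were wide, for example -0.59 to 1.13 for Hsph1 and -0.86 to 1.04 for Bag3, genes that with Hspb1 were chosen after their values were seen. For Hspa8 the difference was -0.48 (standard error 0.19, adjusted p = 0.32), and with 1-3 and 1-5 in place of 6K it was called with the opposite sign, at 0.95 (adjusted p = 0.028).

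Among the other lists except cell type markers, carbohydrate metabolism and stress response held the largest shares of genes past an unadjusted p under 0.05. That threshold was passed higher by 5.63% of all genes and lower by 7.73%. Bile acid synthesis and transport had 4 lower and 1 higher of 21, among them Cyp8b1, which makes cholic acid, with -1.23 (standard error 0.27, adjusted p = 0.13). Carbohydrate metabolism had 8 lower and 0 higher of 20, with a median of -0.27 (2 lower and a median of -0.01 with 1-3 and 1-5 in place of 42WKK, and 4 to 8 lower without single arrays). The lower ones included Slc2a2, the hepatic glucose transporter, at -1.06 (standard error 0.27) and Ppp1r3c, a glycogen-targeting subunit of protein phosphatase 1, at -1.89 (standard error 0.50). Lipid storage had 2 lower and 1 higher of 20. The higher one was Lpl, lipoprotein lipase, at 1.80 (standard error 0.57), with 8.83 and 8.30 in 6K, 8.58 and 7.69 in 6Y, 5.14 and 5.74 in 42WKK, and 7.01 and 6.62 in 42Y. Growth hormone and sex-dependent genes had 3 higher and 2 lower of 21, with Elovl3 called. Moxd1, a monooxygenase gene of that list, had 3.77 to 4.15 in the 6 arrays of 6K, 6Y and 42WKK and 9.21 and 8.46 in 42Y, and a difference of 4.93, the highest of all genes. Its standard error was 1.27 (adjusted p = 0.17), since arrays 1-3 and 1-5 had 5.69 and 9.20 and enter the estimate of the spread. Stress response genes had 5 higher and 1 lower of 20, led by Xbp1, a factor of the unfolded protein response, at 1.15 (standard error 0.31). Without single arrays 2 to 5 were higher.

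The next counts are at the same unadjusted threshold, passed higher by 5.63% and lower by 7.73% of all genes. Insulin signalling had 3 higher and 2 lower of 18. Irs2, a substrate of the insulin receptor, had 0.66 (standard error 0.21) and Irs1, its relative, -0.49 (standard error 0.19), with no call. Conjugation enzymes had 3 higher and 1 lower of 23, amino acid and urea cycle genes 3 and 0 of 21, apolipoproteins 1 and 2 of 18, fibrosis genes 2 and 1 of 18, iron genes 1 and 1 of 15, cell cycle genes 0 and 1 of 18 and fetal or tumour genes 0 and 1 of 16. Among the 13 lists of cell type markers no gene was called. Lipid-associated macrophage markers had 3 higher and 1 lower of 8, the pancreatic and stellate lists 1 lower each, and the hepatocyte, Kupffer cell, T and NK cell, B cell, erythroid, endothelial, cholangiocyte, adipocyte and blood leukocyte lists none. Hepatocyte markers had a median difference of -0.01.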

How the data were processed

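The authors hybridised RNA to an Affymetrix mouse array and deposited log2 signals of 35556 transcript clusters in 12 arrays, normalized together by robust multichip averaging (the sketch form) in Expression Console per the labels. The build behind the clusters was not given in the sources used here. No read depth applies, and the 2 arrays of a group limit the precision. Symbols came from the platform annotation, updated through RefSeq. Of the clusters 21789 had 1 symbol, 1621 several and 12146 none. A gene was its 1-symbol cluster with the highest mean over the 12 arrays.

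A linear model with 1 mean for each of 6 groups was fitted to the 12 arrays with limma 3.58.1 in R 4.3.3 (6 residual degrees of freedom), and contrasts were tested with moderated two-sided tests, adjusted by Benjamini-Hochberg over all 35556 clusters at 0.05. Errors and intervals are those of this fit. The script was tested on simulated data. Named were the genes of the A-y deletion, Nt5c2 and Fut8, up to 12 called genes in each direction (filled by smallest unadjusted p, without predicted names or small RNAs) and up to 5 genes of each list by smallest unadjusted p. Exceptions are stated beside them. The comparison, the lists and these rules were chosen with earlier results of these data known. Controls 1-3 and 1-5 in place of 42WKK were an alternative added after the data were seen. Other alternatives were further normalizations, filters, fits, controls and the leaving out of each array.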

Additional observations from a re-analysis of the deposited data

Results flagged for a closer look

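The genes called in the difference are those in which the effect of the A-y allele at 42 and at 6 differed by the test of the difference itself, and they are listed here for a closer look. Higher at 42 than at 6 were n-R5s136 (3.40), Cyp2b10 (2.84), Slc41a1 (1.85), Snord15b (1.67), Zc3h13 (1.38), Snord96a (1.28), Smad1 (1.24), Map3k6 (1.24) and Sbno2 (1.08). Lower were Ube2u (-2.09), Arntl (-1.97), Cyp2c67 (-1.88), Postn (-1.77), Gask1a (-1.68), Elovl3 (-1.36), Nckap5 (-1.36), Pclo (-1.29) and Clpx (-1.29). A further gene called lower has a predicted name and is not listed. For n-R5s136, Snord15b, Snord96a, Postn and Pclo the 42WKK arrays stood farthest from the other groups, for Cyp2b10 and Sbno2 both 42WKK and 42Y stood about equally far on opposite sides, and for the others it was the 42Y arrays. Groups of 2 arrays were too small for a check of single outlying arrays.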

How the results depend on the processing

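The number of called clusters depended strongly on the setting. Over 3405 values of 193 named genes under alternatives, 3103 stayed on their side of the threshold, 149 newly passed it and 150 no longer did with the same sign, and 3 that were called in either setting changed sign. Only 15 of the 193 genes were called, so most of the 3103 values are from genes called in neither setting and do not show stable calls. Of the 3103, 89 values of 53 genes, agouti among them, changed sign with no call in either setting. The 3 were Cyp2b10 (-0.23) and Postn (0.00, as written 0.00483) with 1-3 and 1-5 in place of 42WKK, and Hspa8 (0.95) with 1-3 and 1-5 in place of 6K. The difference had 51 called clusters, 32 higher and 19 lower. It had 622 (269 higher, 353 lower) among clusters with a mean of at least 6, 202 (104, 98) with a variance trend, 208 (87, 121) among clusters with 1 symbol, 10 (8, 2) with the 8 arrays alone and 1 (0 higher, 1 lower) in an unmoderated linear model of these, where 4214 clusters had an unadjusted p under 0.05. With 1-3 and 1-5 in place of 6K it had 2082 (731, 1351), and in place of 42WKK 6 (2, 4). Leaving out single arrays gave 3 to 110 (2 to 68 higher, 1 to 42 lower), with 3 without 6K replicate 2, 6 without 6K replicate 1 or 42WKK replicate A, 11 without 6Y replicate 1, 23 without 42Y replicate 1, 24 without 42WKK replicate B, 30 without 6Y replicate 2 and 110 without 42Y replicate 2. The array that is left alone in its group is then assumed to vary like the others. The effect at 42, with 659 calls (332 higher, 327 lower), had 1721 (656, 1065) with a mean of at least 6, 1113 (641 lower) with a variance trend, 1000 (595 lower) with 1 symbol, 127 (82, 45) with the 8 arrays alone and 8 (3, 5) in the unmoderated model. It had 161 lower with 1-3 and 1-5 in place of 42WKK, and leaving out single arrays gave 52 to 500 (36 to 245 higher, 16 to 255 lower). The effect at 6, with 1 call, had 0 by quantile normalization, with the 8 arrays alone and in the unmoderated model, where 1849, 1765 and 1904 clusters had an unadjusted p under 0.05. It had 2 with a mean of at least 6 or with 1 symbol, 0 to 1 without single arrays (agouti in none of these) and 1215 with 1-3 and 1-5 in place of 6K. The cause of these changes was not tested.

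The replicate numbers pair no samples by the labels, and same-number deviations correlated at -0.036 to 0.055. With the replicate block 16 clusters were called in the difference (13 higher, 3 lower), all among the 51, 446 at 42 (198 of them lower) and 0 at 6, where 1965 had an unadjusted p under 0.05.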
